A study of Homo sapiens with 8 samples.

Results

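The facilitative glucose transporters are membrane proteins of the SLC2A gene family, and 10 of its genes were followed here in RNA-seq counts of cells labelled A549. The members were SLC2A1, SLC2A2, SLC2A3, SLC2A4, SLC2A6, SLC2A8, SLC2A10, SLC2A12, SLC2A13 and SLC2A14, found by gene name among the 58735 genes of the count table. All 10 were in the table, and 7 of them passed the filter on low counts, among 14621 genes that did. The family was picked in view of the EV against KRT19 contrast, in which SLC2A3 stood out, so the differences of the members between the groups are given as a description and no test is drawn from them.

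The study compared 4 libraries of cells transduced with an empty lentiviral vector (EV group) with 4 libraries of cells transduced with a lentivirus for Flag-tagged KRT19 (KRT19 group), to ask what an excess of keratin 19, an epithelial intermediate filament protein, changes in non-small cell lung cancer cells. Both groups came from 1 cell line, labelled A549, grown in RPMI-1640 with serum, and the transduced cells were selected with puromycin for weeks to make stable lines. No source used here says whether the lines were clones or pools, or whether the libraries of a group came from separate cultures, so every p-value below measures only the spread between these libraries. Total RNA was isolated with TRIzol and made into libraries with a NEBNext Ultra kit, and the label on extraction names retina as the source although the samples are given as a cell line.

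Facilitative transporters let hexoses cross the membrane down their concentration gradient without direct use of energy. Inside the cell, hexokinase phosphorylates glucose, which traps it and commits it to glycolysis, glycogen or the pentose phosphate pathway. SLC2A1 (GLUT1) provides basal uptake in most cells and is commonly raised in lung tumours, SLC2A3 (GLUT3) is the high-affinity carrier best known from neurons, and SLC2A14 (GLUT14) is a copy of SLC2A3 that lies next to it on chromosome 12.

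KRT19 itself had 1 to 5 counts in the EV libraries and 4353 to 5147 in the KRT19 libraries, as the labels state. Total counts per library lay between 14073065 and 17054364. The markers went partly against the cell line label. CDKN2A, CDKN2B and MTAP, which are homozygously deleted in A549, were counted in all 8 libraries at 94.2 to 108, 33.1 to 38.8 and 41.8 to 50.9 CPM, the counts scaled to a common library size. Of 15 genes that A549 is known to express, 8 had a mean of at least 1 CPM, among them KRT8, KRT18 and NQO1. Also among these 8, KRT7 had only 2.25 to 4.28 CPM and AKR1C2 0.845 to 2.75 CPM. By contrast, EPCAM had 0 to 3 counts and CDH1 0 to 1. AKR1B10, AKR1C3, ALDH1A1 and ALDH3A1 of the same list reached at most 0.852, 0.133, 0.177 and 0.266 CPM in any library. The cells are therefore called by their label only. Of the retina markers reported, RCVRN had 0 counts in all libraries, CRX 0 or 1, RLBP1 0 to 2 and PDE6B 0 to 6, while NRL had 9 to 24 and OPN1SW 22 to 30 counts (1.29 to 2.13 CPM). KRT19 replicate 3 was the lowest of the 8 libraries for 4 of the 7 tested members and the highest for 1, so the main values that move with it are also given without it. In a bulk library, fewer cells of a kind and less RNA per cell cannot be told apart.

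The sequences show how SLC2A3 and SLC2A14 can be mistaken for each other. A stretch of 150 coding bases from exon 9 of 10 of both genes was taken from the GENCODE 29 transcripts (GRCh38), where they share their longest run of identical coding bases, 137 bases. Capitals mark bases that differ from SLC2A3, and each sequence is on the minus strand of the genome, 5′ to 3′.

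SLC2A3, chr12:7922821-7922970: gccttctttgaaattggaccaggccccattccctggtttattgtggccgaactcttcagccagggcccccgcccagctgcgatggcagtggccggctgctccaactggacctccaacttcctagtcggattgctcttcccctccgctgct

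SLC2A14, chr12:7817831-7817980: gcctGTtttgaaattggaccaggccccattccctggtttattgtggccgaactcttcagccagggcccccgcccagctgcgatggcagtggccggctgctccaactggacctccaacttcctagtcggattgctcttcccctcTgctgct

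SLC2A14 differed from SLC2A3 at 3 of these 150 bases. Over the whole coding sequence, 1439 of 1488 aligned bases (96.7%) were identical between SLC2A3 and SLC2A14, and 984 of 1464 (67.2%) between SLC2A3 and SLC2A1. Of the 75-base words in the annotated SLC2A3 transcripts, 8.11% also occurred in SLC2A14, so part of the reads of either gene could be assigned to the other, and the sources do not state how such reads were treated. The share was 1.11% for SLC2A1, all of it with its antisense gene SLC2A1-AS1, and 0 for SLC2A2, SLC2A6, SLC2A8, SLC2A10 and SLC2A13. SLC2A12 overlaps TBPL1 on the opposite strand over 38.9% of its exon bases, and without a stated use of strand its few counts cannot be told apart from those of TBPL1, which had 294 to 426 counts.

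Levels between genes were compared as RPKM, the TMM-scaled CPM divided by the length of the annotated exons in kilobases. The plot of RPKM by library places the 7 members that passed the filter in 3 tiers. SLC2A1 and SLC2A3 formed the upper tier with means over the 8 libraries of 52.5 ± 3.85 and 47.3 ± 6.56 RPKM (SD, n = 8). Their ranges overlapped, although SLC2A1 was above SLC2A3 in 7 of 8 libraries. Divided by the annotated coding length instead, SLC2A3 came first with 195.9 and SLC2A1 second with 168.1 CPM per kilobase, so the order of these 2 genes depends on which length is used and is not resolved.

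**Figure D1:**
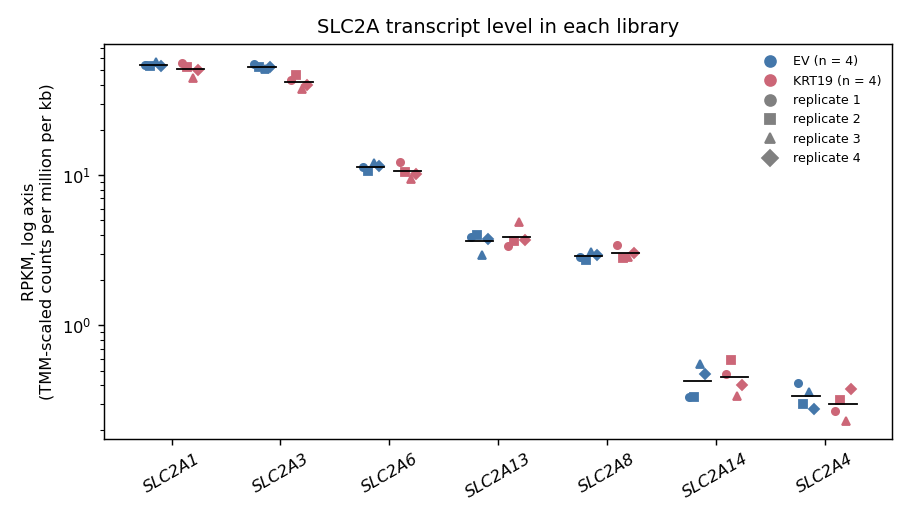
Transcript level of the 7 SLC2A members that passed the filter, as RPKM on a log axis, for 4 EV (blue) and 4 KRT19 (red) libraries, with a symbol for each replicate number and a bar at each group mean. SLC2A1 and SLC2A3 lie near 50 RPKM, SLC2A6, SLC2A13 and SLC2A8 between 2.72 and 12.2 RPKM, and SLC2A14 and SLC2A4 below 1 RPKM. Only for SLC2A3 do all KRT19 libraries lie on one side of all EV libraries.

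The middle tier held 3 members that act largely inside the cell or on other substrates. SLC2A6 (GLUT6), a transporter of lysosomal membranes, had 11.0 ± 0.939 RPKM and overlapped neither neighbour in the order. SLC2A13 (HMIT), which carries myo-inositol together with protons, had 3.77 ± 0.557 RPKM, and SLC2A8 (GLUT8), an intracellular hexose transporter, had 2.97 ± 0.226 RPKM. The ranges of SLC2A13 and SLC2A8 overlapped, with SLC2A13 above in 6 of 8 libraries.

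The lower tier was made of SLC2A14 with 0.438 ± 0.101 RPKM and SLC2A4 (GLUT4), the insulin-responsive carrier of muscle and fat, with 0.317 ± 0.0609 RPKM (SD, n = 8). These ranges overlapped as well, and both genes rested on few reads, 28 to 51 counts per library for SLC2A14 and 16 to 25 for SLC2A4. The remaining 3 members were at or near the floor of 3 counts, which corresponds to 0.176 to 0.213 CPM and covers counting error only. SLC2A2 (GLUT2), the low-affinity carrier of liver and pancreatic beta cells, had 1 count in EV replicate 1 and 0 elsewhere. SLC2A10 (GLUT10) had 1 count in KRT19 replicate 3 and 0 elsewhere. SLC2A12 (GLUT12) had 1 to 6 counts per library. Transcripts of these 3 genes were thus close to or below what this depth can detect, and no fold is given for them.

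SLC2A3 (ENSG00000059804, chromosome 12, 7919230 to 7936275, minus strand) was the only one of the 7 tested members without overlap between the groups. Its level was 55.1, 52.3, 51.2 and 52.9 RPKM in EV replicates 1 to 4 and 43.3, 46.4, 37.4 and 40.0 RPKM in KRT19 replicates 1 to 4. Every KRT19 library lay below every EV library, with KRT19 replicate 2 the nearest to the EV range and KRT19 replicate 3 the farthest. In raw counts the gene had 5103 to 5536 in EV and 3726 to 4420 in KRT19 libraries. The mean went from 325.7 ± 10.3 to 257.3 ± 24.2 CPM (SD, n = 4 each), a log2 difference of -0.34 ± 0.060 (SE) or -21.0%. This is the value for which the family was picked, and of all tested genes 1.81% likewise lay wholly lower and 1.63% wholly higher in the KRT19 libraries.

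The value for SLC2A3 moved little with the handling of its copy and of single libraries. With the counts of SLC2A3 and SLC2A14 summed into 1 gene it was -0.34 ± 0.060. It was -0.29 without KRT19 replicate 3, the library with the lowest value, and -0.34 ± 0.051 after trends with GC content and gene length had been removed from each library. Its biological coefficient of variation of 6.31% was near the median of 7.22% over all tested genes.

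SLC2A1 (ENSG00000117394, chromosome 1, 42925375 to 42959176, minus strand) overlapped between the groups. It had 54.0, 53.1, 56.8 and 53.0 RPKM in the EV libraries and 55.7, 52.7, 44.3 and 50.6 RPKM in the KRT19 libraries. The EV libraries sat close together, while KRT19 replicate 1 lay within their range and the others below it. The log2 difference was -0.09 ± 0.061, and it was -0.03 without KRT19 replicate 3 and -0.14 without KRT19 replicate 1. Between the groups SLC2A1 therefore differed by less than the spread among the KRT19 libraries.

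Within a library, SLC2A3 and SLC2A1 are measured against the same depth, so their ratio does not depend on the scaling of the library. The EV libraries had a mean ratio of SLC2A3 to SLC2A1 in RPKM of 0.976 ± 0.0527 and the KRT19 libraries one of 0.824 ± 0.0481 (SD, n = 4 each), and the ranges of 0.900 to 1.02 and 0.777 to 0.881 did not overlap. The ratio contains the value that picked the family and is a description of it on another scale. The plot of SLC2A3 against SLC2A1 shows the EV libraries near the line of equal level and the KRT19 libraries below it.

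**Figure D2:**
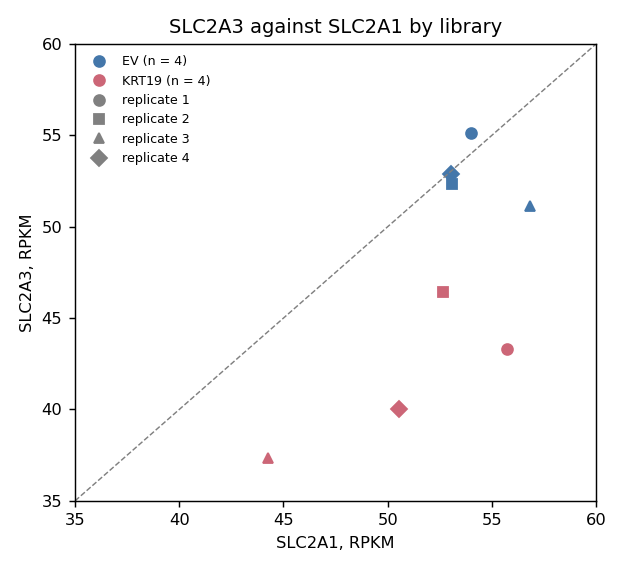
SLC2A3 (vertical axis) against SLC2A1 (horizontal axis), both in RPKM, for each of 4 EV (blue) and 4 KRT19 (red) libraries, with a dashed line of equal level. SLC2A3 is above SLC2A1 in EV replicate 1 alone. All KRT19 libraries lie below the EV libraries on the vertical axis, and KRT19 replicate 3 is lowest on both axes.

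The summed level of the 10 members was 125.8 ± 2.06 RPKM in EV and 110.9 ± 8.95 RPKM in KRT19 libraries, with ranges of 123.4 to 128.0 and 99.4 to 118.8. SLC2A1 and SLC2A3 together made up 85.1% ± 0.268 of this sum in EV and 83.4% ± 1.03 in KRT19 libraries. The share of SLC2A3 was 42.0% ± 1.20 and 37.7% ± 1.40, and that of SLC2A1 43.1% ± 1.16 and 45.8% ± 1.20. Per kilobase of coding length SLC2A3 was the higher of these 2 genes in both groups, with 218.9 against 173.6 CPM in EV and 172.9 against 162.6 CPM in KRT19 libraries, so the balance depends on the length and only its shift between the groups does not.

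The other 5 tested members all overlapped between the groups. SLC2A6 (chromosome 9) had 11.4, 10.6, 12.0 and 11.5 RPKM in the EV libraries and 12.2, 10.6, 9.41 and 10.2 RPKM in the KRT19 libraries, with a log2 difference of -0.10 ± 0.075. It was -0.05 without KRT19 replicate 3, the lowest library, and -0.18 without KRT19 replicate 1, the highest. SLC2A8, on the same chromosome, had 2.72 to 3.10 and 2.82 to 3.44 RPKM and a log2 difference of 0.07 ± 0.095, which went to 0.0024 without KRT19 replicate 1 and to 0.04 when EV replicate 2 was left out. In RPKM neither difference was larger than the SD of the KRT19 libraries.

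SLC2A13 (chromosome 12) had 3.90, 3.98, 2.96 and 3.74 RPKM in the EV libraries and 3.35, 3.65, 4.89 and 3.71 RPKM in the KRT19 libraries. KRT19 replicate 3 was the highest of all and EV replicate 3 the lowest, and the other 6 lay between 3.35 and 3.98 RPKM. The log2 difference of 0.10 ± 0.11 turned to -0.03 without KRT19 replicate 3, it was 0.01 without EV replicate 3 and 0.17 without KRT19 replicate 1, and it was 0.04 ± 0.065 after removal of the GC and length trends. At 36.6% GC, SLC2A13 lay below the lower quartile of tested genes, 41.9%.

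SLC2A14 had 28, 31, 51 and 45 counts in the EV libraries and 44, 46, 32 and 34 counts in the KRT19 libraries. The groups overlapped almost wholly, and the log2 difference of 0.07 ± 0.22 changed sign when single libraries were left out. It made up 0.726% ± 0.203 of the joint counts of SLC2A3 and SLC2A14 in EV and 0.957% ± 0.137 in KRT19 libraries, with overlapping ranges. SLC2A4 had 19 to 25 counts in EV and 16 to 23 in KRT19 libraries, with a log2 difference of -0.18 ± 0.25. It was -0.07 without KRT19 replicate 3 or without EV replicate 1 and -0.31 without KRT19 replicate 4. The SE of these 2 genes was large beside the difference seen for SLC2A3, and whether a change of that size could be shown for them was not tested.

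**Figure D3:**
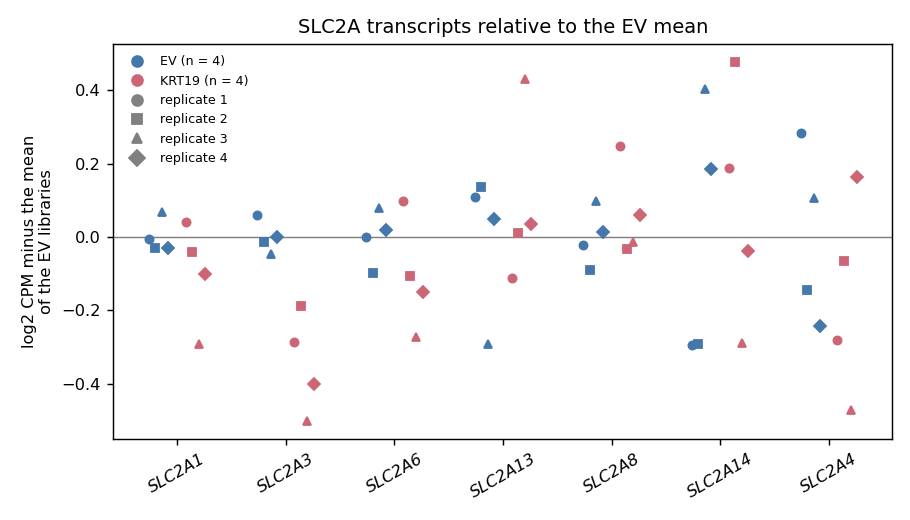
Log2 CPM of the 7 tested SLC2A members in each library, minus the mean of the 4 EV libraries of that gene, for EV (blue) and KRT19 (red) libraries with a symbol for each replicate number. For SLC2A3 the KRT19 libraries lie between -0.50 and -0.19, below all EV libraries, and for the other 6 members the groups overlap. KRT19 replicate 3 is the lowest library for SLC2A1, SLC2A3, SLC2A4 and SLC2A6 and the highest for SLC2A13.

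Of the 7 tested members, 4 had a log2 difference below 0, as had 47.8% of all tested genes. The median over the members was -0.09, beside 0.01 over all genes, and without KRT19 replicate 3 it was -0.03, beside 0.0027. At an unadjusted p of 0.05, 1 member was called, SLC2A3, where 5.41% of all genes were called and 2.56% were called lower in KRT19. Without KRT19 replicate 1 SLC2A1 and SLC2A6 were called as well, 3 members in all and each lower. At that setting 1228 of 14823 genes were called in either direction, 58.8% of them higher. After Benjamini-Hochberg adjustment in the edgeR quasi-likelihood test no member was called, and 0.00684% of all genes, which is KRT19 alone, were. SLC2A3 was called at the adjusted threshold by the DESeq2 Wald test and by limma-voom. Nothing is read from these shares, since the contrast served to pick the family.

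Across the 8 libraries the log2 CPM of SLC2A1 ran with that of SLC2A6 (Pearson r = 0.92) and against that of SLC2A13 (r = -0.89), and less closely with SLC2A3 (r = 0.70). With the group means removed these values were 0.90, -0.90 and 0.69. When 9510 genes were ordered by r with SLC2A1 over the 8 libraries, SLC2A6 came at place 113, SLC2A3 at 1357 and SLC2A13 at 9097. Many genes outside the family were thus closer to SLC2A1 or more opposed to it. GC content was 54.8% for SLC2A1, 64.1% for SLC2A6 and 36.6% for SLC2A13, and its part in the correlations with SLC2A1 was not tested. Over the 7 libraries without KRT19 replicate 3, r was 0.90 with SLC2A6, -0.72 with SLC2A13 and 0.36 with SLC2A3, and 0.17 with SLC2A3 once the group means were removed, so the relation of SLC2A1 and SLC2A3 rested on that library. Among 9510 genes with a mean of at least 10 CPM, those most like SLC2A1 were PGD, an enzyme of the pentose phosphate pathway (r = 0.99), SEMA4B (r = 0.99) and ITGB4 (r = 0.99). Those most like SLC2A3 were VIM, the intermediate filament protein vimentin (r = 0.98), KCTD7 (r = 0.97) and SCD, a fatty acid desaturase (r = 0.97). With the group means removed, PGD, SEMA4B and ETHE1 came first for SLC2A1 and XPO5, TNPO3 and FOSL2 for SLC2A3. The genes in the first places for SLC2A3 thus changed, but KCTD7, SCD and VIM still had r of 0.94, 0.91 and 0.87 with it. All of these are descriptions over 8 points that share their scaling, and KRT19 replicate 3 is an extreme point for several of the genes.

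Of the other genes of the family, 1 of 4 was tested. SLC2A11 (GLUT11) had 5.52 ± 0.0671 CPM in the EV group and 5.14 ± 0.903 CPM in the KRT19 group and a log2 difference of -0.10 ± 0.13. The groups overlapped, since KRT19 replicate 3 was the highest library at 6.38 CPM. The EV range was 5.46 to 5.60 CPM, and the other KRT19 libraries had 4.34 to 5.19 CPM. Without KRT19 replicate 3 the difference was -0.22. How many of all genes separate with that library left out was not counted, so nothing is read from this. Leaving out KRT19 replicate 2 or 4 gave -0.03 or -0.05. By contrast, SLC2A5, the fructose carrier GLUT5, SLC2A7 and SLC2A9 had at most 2 counts in any library. The processed pseudogenes of SLC2A3 had 0 to 4 counts each. Among 8 sodium-coupled and SWEET transporters 5 had at most 3 counts in every library. The tested ones were SLC5A3, a myo-inositol carrier, at a log2 difference of -0.09 ± 0.058, and SLC50A1, a SWEET sugar transporter, at 0.03 ± 0.063. With single libraries left out they ranged from -0.11 (without EV replicate 3) to -0.06 (without EV replicate 4) and from 0.00036 (without KRT19 replicate 2) to 0.08 (without KRT19 replicate 3).

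The genes that act on glucose after its entry and on the transporters themselves were followed in 7 lists of 83 genes, of which 64 were tested. None passed the adjusted threshold in the edgeR test or the DESeq2 Wald test, and 1, PGK1, passed it in limma-voom. At an unadjusted p of 0.05, 9 were lower and 1 was higher in KRT19, where 2.56% of all genes were lower and 2.85% higher. Without KRT19 replicate 3, 6 were lower, where 2.86% of all genes were lower. Without KRT19 replicate 1, 16 were lower, where 1228 of 14823 genes were called in either direction, 58.8% of them higher. The plot of the lists shows where these genes lie.

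**Figure D4:**
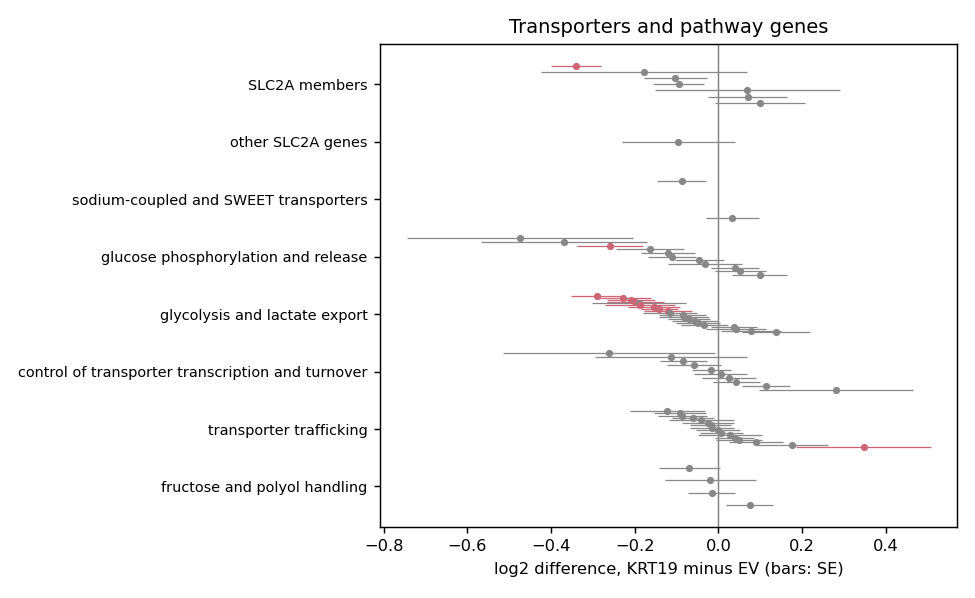
Log2 difference between the KRT19 and EV libraries (horizontal axis, KRT19 minus EV) with its standard error for each tested gene, grouped by list, with genes at an unadjusted p under 0.05 in red. Of the red points beside SLC2A3, 8 belong to glycolysis and lactate export, 1 to phosphorylation and release and 1, the only one right of 0, to transporter trafficking.

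Of the 20 tested genes of glycolysis and lactate export, 16 had a log2 difference below 0 with a median of -0.10, and 8 of them passed the unadjusted threshold. Over all tested genes 47.8% were below 0 and 2.56% were called lower at that threshold. Without KRT19 replicate 3 the list still had 16 genes below 0, with a median of -0.04, and 5 were called lower. At that setting 48.8% of all genes were below 0 and 2.86% were called lower. Without EV replicate 3 the list had 15 below 0, with a median of -0.07, and again 5 called lower. At that setting 47.7% of all genes were below 0. Of 14807 genes 636 were called in either direction, 51.4% of them higher. Without KRT19 replicate 1 the list had 10 called lower, where 1228 of 14823 genes were called in either direction, 58.8% of them higher. PGK1, which makes ATP from bisphosphoglycerate, went from 2623 ± 118 to 2146 ± 221 CPM, a log2 difference of -0.29 ± 0.063 (edgeR quasi-likelihood test, adjusted p = 0.377). LDHA, which turns pyruvate into lactate, went from 2104 ± 73.1 to 1820 ± 159 CPM with a log2 difference of -0.21 ± 0.057 (adjusted p = 0.766 in the same edgeR fit). GPI, which follows hexokinase, and PGAM1, a mutase of lower glycolysis, had log2 differences of -0.23 ± 0.066 and -0.14 ± 0.044 (adjusted p = 0.868 for each in the edgeR fit). In these 4 genes, as in SLC2A3, no KRT19 library reached the EV range.

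SLC16A3 (MCT4), which exports lactate, had 302.0 ± 13.4 CPM in the EV group and 263.3 ± 30.6 CPM in the KRT19 group and a log2 difference of -0.20 ± 0.068 (edgeR fit, adjusted p = 0.889), with overlap between the groups. GAPDH overlapped as well, at -0.06 ± 0.055, and at -0.01 without KRT19 replicate 3. Of the 8 genes, PGK1, LDHA, GPI, PGAM1 and SLC16A3 passed the unadjusted threshold in all of 17 alternative fits, ENO2 in 14, PFKFB4 in 12 and PFKL in 10. Without KRT19 replicate 3 the last 3 did not pass, and the log2 differences of PGK1, LDHA, GPI, PGAM1 and SLC16A3 were -0.22, -0.15, -0.15, -0.12 and -0.13.

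Of 11 tested genes of glucose phosphorylation and release, 1 was called at the unadjusted threshold, which 5.41% of all genes passed. Without KRT19 replicate 1, 4 were called lower, where 1228 of 14823 genes were called in either direction, 58.8% of them higher. Without EV replicate 4, 2 were called lower, where 620 of 14788 genes were called in either direction, 52.1% of them higher. GYS1, the glycogen synthase of most tissues, went from 88.9 ± 3.23 to 74.4 ± 10.2 CPM with a log2 difference of -0.26 ± 0.079 (edgeR fit, adjusted p = 0.868). HK2, the inducible hexokinase, had 135.6 ± 6.50 and 125.7 ± 8.45 CPM and a log2 difference of -0.11 ± 0.058 (edgeR fit, adjusted p = 0.906), and was past neither threshold. Without KRT19 replicate 3 the log2 difference of GYS1 was -0.17. The median of the list was -0.11, and -0.06 without that library, where HK2 was also at -0.06.

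None of the 10 tested genes that control transcription or turnover of the transporters was called, and their median was -0.01. With single libraries left out, that median changed sign, from -0.02 (without EV replicate 3) to 0.01 (without EV replicate 4). HIF1A, the hypoxia-inducible factor that acts on SLC2A1, had 135.0 ± 8.01 CPM in the EV group and 139.1 ± 7.35 CPM in the KRT19 group. TXNIP, the arrestin that removes SLC2A1 from the cell surface and is itself induced by glucose, had 0 counts in all EV libraries and 0 to 2 in KRT19 libraries, all below the floor.

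All 16 genes of transporter trafficking were tested, and 1 was called, beside the same 5.41% of all genes. RAB13, a small GTPase of vesicle traffic, had 14.7 ± 2.44 CPM in the EV group and 18.6 ± 5.70 CPM in the KRT19 group, a log2 difference of 0.35 ± 0.16 (edgeR fit, adjusted p = 0.906). Its highest value, 27.1 CPM, came from KRT19 replicate 3, without which the log2 difference was 0.10 and the gene was not called. It passed the unadjusted threshold in 10 of 17 alternative fits. SNX27 and VPS35, which return SLC2A1 from endosomes to the surface, had log2 differences of -0.09 ± 0.059 and 0.04 ± 0.047, with SNX27 at -0.04 without EV replicate 1 and VPS35 at 0.02 without KRT19 replicate 2 or EV replicate 3. None of the 4 tested genes of fructose and polyol handling was called. Without KRT19 replicate 1, 1 of them was called lower, where 1228 of 14823 genes were called in either direction, 58.8% of them higher.

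Markers of other cell types were low, with some movement between the groups. The summed liver list had 28.8 to 31.2 CPM in the EV group and 19.6 to 24.9 CPM in the KRT19 group, nearly all of it SERPINA1, with ALB at 0 or 1 count and AFP at 0. The endothelium list of 4 genes had 2.77 to 3.13 CPM and 2.17 to 2.48 CPM, also without overlap. The fibroblast list lay at 2.40 to 3.29 and 1.79 to 3.80 CPM and the immune list at 0 to 0.243 and 0.199 to 0.483 CPM. Their part in the lower SLC2A3 level was not tested.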

How the data were processed

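RNA-seq counts of 4 EV and 4 KRT19 libraries were analysed, with groups and replicate numbers from the sample titles. Read counts of each gene, raw and with GRCh38 coordinates, were deposited by the authors as 1 table. The submitters' processing notes name Bowtie 0.12.2, featureCounts 1.5.0-p3, DESeq2 and hg38, with no role or order. The handling of strand and of reads matching several genes was not given in the sources used here, and this affects SLC2A3, SLC2A14 and SLC2A12 in particular. All 58735 gene identifiers matched GENCODE 29 with the same start and end.

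Counts were fitted in R 4.3.3 with edgeR 4.0.16 (filterByExpr, TMM, glmQLFit and glmQLFTest, group only), with two-sided p-values adjusted by Benjamini-Hochberg over 14621 genes at a threshold of 0.05. The unadjusted threshold of 0.05 is the one the study used. Log2 CPM had a prior count of 2. SE was taken as the log2 difference over the root of its F statistic. The length for RPKM was the union of annotated exons. Shared sequence was counted in 75-base words of the transcripts, and coding sequences were aligned with Biopython 1.88.

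Members and gene lists were chosen with earlier results of these data known. All 10 members are accounted for, list genes at an unadjusted p under 0.05 are named up to 4 per direction together with TXNIP, HK2 and SLC16A3, and SLC5A3, SLC50A1, GAPDH, PFKL, ENO2, PFKFB4, HIF1A, SNX27, VPS35 and SLC2A11 were added by their role or after their values were seen. Alternatives were DESeq2 1.42.0 size factors and Wald test, upper-quartile scaling, limma-voom (limma 3.58.1) with quality weights, filters that were looser (1 or more counts in all) or stricter (5 or more CPM in 4 libraries), the replicate block, splines of GC content and length with 5 degrees of freedom, leaving out each library, and the summed SLC2A3 and SLC2A14. The fit was tested on simulated counts. Of the sequences compared and the cell type markers, 1 each is not reported here.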

Additional observations from a re-analysis of the deposited data

How the results depend on the processing

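SLC2A3 kept its direction in all 18 alternatives, between -0.39 (without KRT19 replicate 2) and -0.29 (without KRT19 replicate 3). It passed the adjusted threshold in 6 of them: the DESeq2 Wald test, voom, the looser filter, both removals of GC and length trends, and without KRT19 replicate 3. No other member passed in any. All of these fits use the same libraries, and this contrast served to pick the family, so no support is drawn from the passes. SLC2A4 turned to 0.045 with voom. SLC2A14 turned to -0.025, -0.033 and -0.074 without EV replicate 1, EV replicate 2 and KRT19 replicate 2 (up to 0.23 without EV replicate 3), and SLC2A13 to -0.031 without KRT19 replicate 3 (up to 0.17 without KRT19 replicate 1). SLC2A14 and SLC2A4 were not left by the stricter filter.

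Over all genes, the 1 adjusted call became 5 with the DESeq2 Wald test, 8 with voom, 71 with the looser filter (30250 genes tested), 5 with GC and length trends removed and 1 to 5 when single libraries were left out, with 5 without KRT19 replicate 3 and 3 without EV replicate 1. The 791 unadjusted calls became 1337 with voom, 1559 with the looser filter, 1196 with GC and length trends removed and 620 to 1228 when single libraries were left out, with 1228 without KRT19 replicate 1. Of the unadjusted calls 52.7% were higher in KRT19, and 40.5% with upper-quartile scaling.

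Replicate numbers gave no pairing of libraries, since the correlations of the deviations of same-numbered libraries were -0.111, -0.0239, -0.159 and 0.0567. With the number as a replicate block the unadjusted calls were 451, and with the block and the GC and length removal together the adjusted calls were 8 and the higher list genes 3.

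List genes lower in KRT19 numbered 6 to 16 when single libraries were left out, with 16 without KRT19 replicate 1 and 6 without EV replicate 3 or KRT19 replicate 3, against 9. Higher ones, against 1, were 0 with upper-quartile scaling, the DESeq2 Wald test and the stricter filter, 4 with voom, 3 with GC and length trends removed and 0 to 3 when single libraries were left out. Past the adjusted threshold were 1 with voom (PGK1) and 4 with the looser filter (PGK1, GPI, LDHA and GYS1), against 0. The cause of these shifts was not tested. With the annotated coding length, an alternative chosen after seeing the data, 5 of 7 places in the order were kept. The planned version with lengths from a protein table was not run.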
